A study of Mus musculus with 2756 samples.

Results

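The 8 genes described here write, copy and erase DNA methylation, and they were followed in single cells of the embryonic mouse neocortex. They were taken by name from the deposited count table, where all 8 were present among 16441 genes: Dnmt1, Uhrf1 and Hells (maintenance), Dnmt3a and Dnmt3b (de novo methylation), and Tet1, Tet2 and Tet3 (oxidation of methylcytosine). The cells came from putative somatosensory cortex of mouse embryos that received FlashTag, a dye taken up by cells in mitosis next to the ventricle, at embryonic day 12, 13, 14 or 15 (E12 to E15). Labelled cells were collected 1, 24 or 96 h later, the brightest were sorted, and each was captured on a microfluidic circuit and read with SMART-seq v4 chemistry. The labels gave no genotype, strain or treatment beyond the dye, and the groups are defined by injection day and collection time, with run codes in the cell titles that differ between them. The 2756 cells fell into 12 conditions of 4 days by 3 times.

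The 15 author clusters, joined by the class in their names, gave apical progenitors (AP, which divide at the ventricle), basal progenitors (BP), neurons of 1 day (N1d) or 4 days (N4d), interneurons (IN) and astrocytes (Astro). The labels named no animal, so reads were summed over cells and each condition was 1 sample; p-values then measure only the spread between these samples, which may be technical. Levels are given as CPM, the reads of a gene per M reads of the sum. The basal progenitor marker list (8 genes) summed to 2644 to 5670 CPM in BP cells at 24 h and to 712 to 1217 CPM in AP cells at 24 h. The interneuron list (9 genes) summed to 2028 to 2840 CPM in IN cells at 96 h and to 116.2 to 275.9 CPM in N4d cells. The apical progenitor list summed to 4845 to 10239 CPM in AP cells at 24 h and to 1379 to 3996 CPM in BP cells at 24 h. Its range in AP cells at 1 h, 3156 to 7977 CPM, overlapped that of BP cells. Marker values of Astro cells are not given here.

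Conditions held 52.3 to 99.04 M reads, with a median of 328910 reads per cell. Each of 6 run codes in the cell titles held a single collection time, so time and run cannot be told apart. At 1 h, E12 shared a code with E14 and E13 with E15, while at 24 and at 96 h the codes paired E12 with E13 and E14 with E15. The E12 cells at 1 h stood apart with a median of 5037 detected genes, against 3898 to 4336 on the other days at 1 h, so results that rest on them are given with and without them.

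Methyl groups on cytosine in CpG dinucleotides are copied to the daughter strand when DNA is replicated. Uhrf1 recognises the half-methylated CpG behind the replication fork and recruits Dnmt1, the maintenance methyltransferase, while Hells is a chromatin remodeller that gives these enzymes access to packed DNA. Dnmt3a and Dnmt3b place methyl groups on unmethylated DNA, Dnmt3b mainly in the early embryo and Dnmt3a also in neurons after birth. The Tet enzymes oxidise methylcytosine to hydroxymethylcytosine, a base that is abundant in neurons and a step on the way to removal of the mark.

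On build GRCm38 (GENCODE vM21 annotation), Dnmt1 lies at chr9:20907209-20959888 (minus strand), Uhrf1 at chr17:56303321-56323486 (plus) and Hells at chr19:38930915-38971051 (plus). Dnmt3a lies at chr12:3806007-3914443 (plus) and Dnmt3b at chr2:153649450-153687730 (plus). Tet1 lies at chr10:62804570-62908996, Tet2 at chr3:133463679-133545139 and Tet3 at chr6:83362373-83459084, all on the minus strand. Dnmt3a shares 0.799% of its exon bases with the opposite-strand gene Dnmt3aos, and Tet2 shares 0.255% with Gm42567. Neither partner is a row of the count table, and the strand setting of the counting is not given in the sources used here.

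Each of the 3 maintenance genes has a promoter with a match to a motif that was not found in the promoters of the other 5. E2F factors switch on genes for DNA replication through sites of the type searched here on both strands: TTTCCCGC, TTTGGCGC, TTTCGCGC or TTTGCCGC. Promoters were taken as 250 bases before to 50 bases after each RefSeq start (GRCm38.p6), and the letters were chosen after the expression results were known. The windows below are printed 5′ to 3′ on the gene's strand, with the match in capitals, because they show a match in each of the 3 genes. It lay in 1 of 3 RefSeq promoters of Dnmt1, where a further match downstream of that start is not shown, in 1 of 2 of Uhrf1 and in the 1 promoter of Hells.
Dnmt1, chr9:20952824-20952853, minus strand, reverse-complement match upstream of a RefSeq start: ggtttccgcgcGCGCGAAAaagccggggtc
Uhrf1, chr17:56304117-56304146, plus strand, match upstream of a RefSeq start: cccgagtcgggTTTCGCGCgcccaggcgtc
Hells, chr19:38930917-38930946, plus strand, match upstream of the RefSeq start: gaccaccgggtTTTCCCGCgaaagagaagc
A match was present for 3 of 3 maintenance genes, 0 of 2 de novo methyltransferases and 0 of 3 Tet genes. It occurred in 2.26% of 32851 promoters of the same length, in 4.66% of the 10341 genes of the count table with a promoter, in 36.8% of 19 S phase genes and in 5.88% of 17 genes of G2 and M phase. Among genes that work with the members it occurred in 3 of 16 cofactors of the methyltransferases and 0 of 11 readers of methylated or unmethylated CpG. It was found in 0 of 12 suppliers of methyl groups and 0 of 14 genes listed for removal of oxidised cytosine. In the GENCODE annotation the Dnmt1 and Hells windows lie within annotated UTRs and the Uhrf1 window does not. Each of these motifs contains a CpG. By number of CpG, the matched promoters of Dnmt1, Uhrf1 and Hells lay at the percentiles 91.4, 91.4 and 92.3 of all promoters. The share of matches among promoters equally rich in CpG was not computed. A match describes letters only, and no binding was measured.

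**Figure D1:**
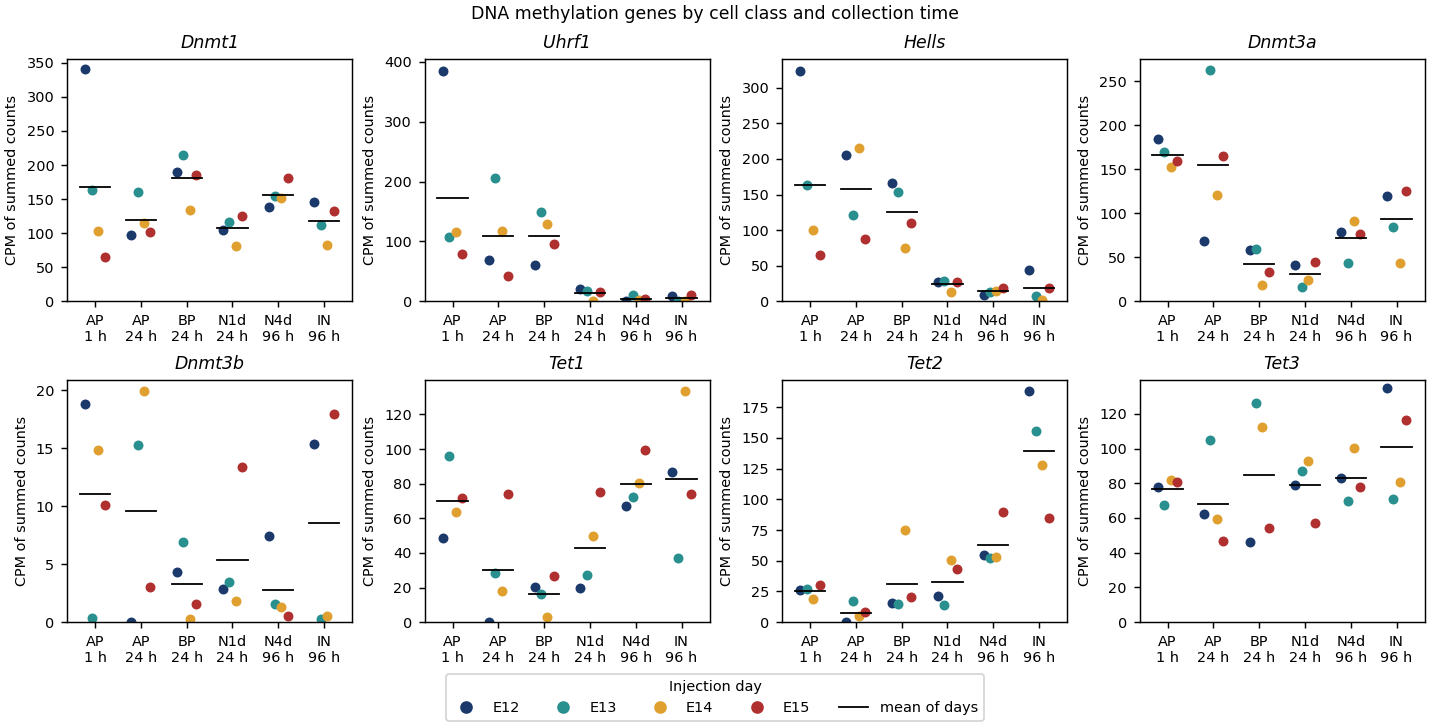
CPM of summed reads (y axis) for each of the 8 genes by cell class and collection time (x axis), with 1 point per injection day and a bar marking their mean. Uhrf1 and Hells were lower in N1d and N4d than in AP at 1 h on each day, while the mean of Tet2 was highest in IN cells at 96 h.

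Uhrf1 was measured highest in progenitors. In AP cells at 1 h it measured 385 CPM at E12, 107.97 at E13, 116.5 at E14 and 79.4 at E15 (mean 172.3 ± 142.9, SD, n = 4 days). In N1d cells at 24 h the same days gave 21.1, 18.0, 1.13 and 15.8 CPM (mean 14.0 ± 8.85), and in N4d cells at 96 h 0.0535, 10.0, 2.38 and 4.08 CPM (mean 4.14 ± 4.27). The lowest AP value was above the highest value of both neuron classes. In the N4d cells of E12, Uhrf1 rested on 3 reads, and in N4d sums of E13 to E15 a single cell gave 59.2% to 85.4% of its reads. The share of AP cells with at least 1 Uhrf1 read was 99.4% at E12 and 49.8% at E15 at 1 h, against 0.694% to 14.6% in N4d cells. After each cell was thinned to 100000 reads these shares were 96.6% and 37.0% in AP and 0 to 6.56% in N4d.

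Hells had a similar distribution. In AP cells at 1 h it measured 324, 163.95, 100.2 and 65.3 CPM from E12 to E15. In N1d cells at 24 h it measured 26.8, 28.4, 13.0 and 27.7 CPM, and in N4d cells at 96 h 8.99, 13.4, 15.1 and 18.2 CPM. AP values at 1 h did not overlap those of either neuron class, and the 2 neuron classes overlapped each other. In BP cells at 24 h, which still divide, Hells was at 165.8, 153.7, 75.3 and 109.8 CPM and Uhrf1 at 59.95, 149.4, 129.3 and 96.5 CPM. The BP sum of E14 held 8 cells, and 1 cell gave 99.8% of its Uhrf1 reads.

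The first comparison asked how the genes changed as labelled cells left the ventricle, and used the lineage sum of a condition, in which AP and BP cells and both neuron classes were added up. In such sums, fewer cells of a class and less RNA per cell cannot be told apart. At 24 h against 1 h, 4 of the 7 members that passed the filter were lower (Dnmt3a, Uhrf1, Hells and Tet1) and 0 were higher, beside 19.2% of 10210 genes called, 7.76% lower and 11.4% higher (edgeR quasi-likelihood test, Benjamini-Hochberg adjusted p under 0.05). Dnmt3b did not reach the filter of 10 CPM in 3 sums. At 96 h against 24 h, Uhrf1 and Hells were lower and Tet1 and Tet2 higher, beside 24.2% of genes called, 12.5% lower and 11.7% higher. The median change of the maintenance genes was -1.07 and then -1.60 on the log2 scale, against -0.0032 and -0.027 over all genes tested.

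Uhrf1 in the lineage sums was at 378, 106.04, 109.9 and 67.96 CPM at 1 h from E12 to E15, at 37.8, 68.1, 32.1 and 38.4 CPM at 24 h and at 2.23, 14.0, 5.80 and 11.4 CPM at 96 h. The lowest 1 h value lay just below the highest 24 h value, and the 24 and 96 h values did not overlap. The 24 h change was -1.80 ± 0.57 (log2, SE; adjusted p = 0.0409, edgeR), and without E12 at 1 h it was -1.14 with an adjusted p of 0.155. Leaving out E14 at 1 h or any 1 of the E12, E13, E14 or E15 sums at 24 h also took the adjusted p above 0.05 (0.0526 to 0.133), as did no filter on low counts (0.0687) and injection day as a block (0.0561). The 96 h change was -2.26 ± 0.57 (adjusted p = 0.0124, edgeR). With N1d and N4d cells alone in place of the whole lineage, that change was -1.61 with an adjusted p of 0.274.

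Hells in the lineage sums was at 314, 158.5, 96.5 and 59.2 CPM at 1 h, at 87.2, 66.9, 60.7 and 58.995 CPM at 24 h and at 23.3, 15.7, 20.4 and 24.6 CPM at 96 h. The 1 and 24 h values overlapped at E15, and the 24 and 96 h values did not overlap on any day. The 24 h change was -1.07 ± 0.33 (log2, SE; adjusted p = 0.0384, edgeR) and -0.72 with an adjusted p of 0.108 without E12 at 1 h. It also missed the threshold without E13 at 1 h, without E12, E13 or E14 at 24 h, and with IN and Astro cells added (adjusted p 0.0579 to 0.111), with no filter on low counts (0.0546) and with injection day as a block (0.0561). The 96 h change was -1.60 ± 0.33 (adjusted p = 0.00445, edgeR), and with N1d and N4d cells alone it was -0.71 with an adjusted p of 0.257. The lineage sums at 24 h also held AP and BP cells, in which both genes measured higher than in N1d cells of the same day.

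Dnmt1 was not called at either step. In the lineage sums it was at 336, 158.6, 101.8 and 82.7 CPM at 1 h, at 133.8, 143.7, 90.8 and 131.6 CPM at 24 h and at 131.8, 149.5, 149.7 and 174.4 CPM at 96 h. Values of the 3 times overlapped. The 24 h change was -0.35 ± 0.32 (log2, SE; adjusted p = 0.482) and the 96 h change 0.36 ± 0.31 (adjusted p = 0.426, edgeR). Over 21 alternatives, leaving out E12 at 1 h among them, the 24 h change ran from -0.62 to 0.05 and was never called. N4d neurons held Dnmt1 at 156.8 ± 17.4 CPM (SD, n = 4 days), beside 168.2 ± 122.6 CPM in AP cells at 1 h. From E12 to E15, N4d cells were at 138.8, 155.3, 152.4 and 180.6 CPM and AP cells at 1 h at 341.6, 163.6, 103.2 and 64.4 CPM. N4d was thus below AP at E12 and E13 and above it at E14 and E15. Of N4d cells, 59.7% to 70.0% had a Dnmt1 read. A test of whether Dnmt1 changed differently from Uhrf1 or Hells was not run.

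**Figure D2:**
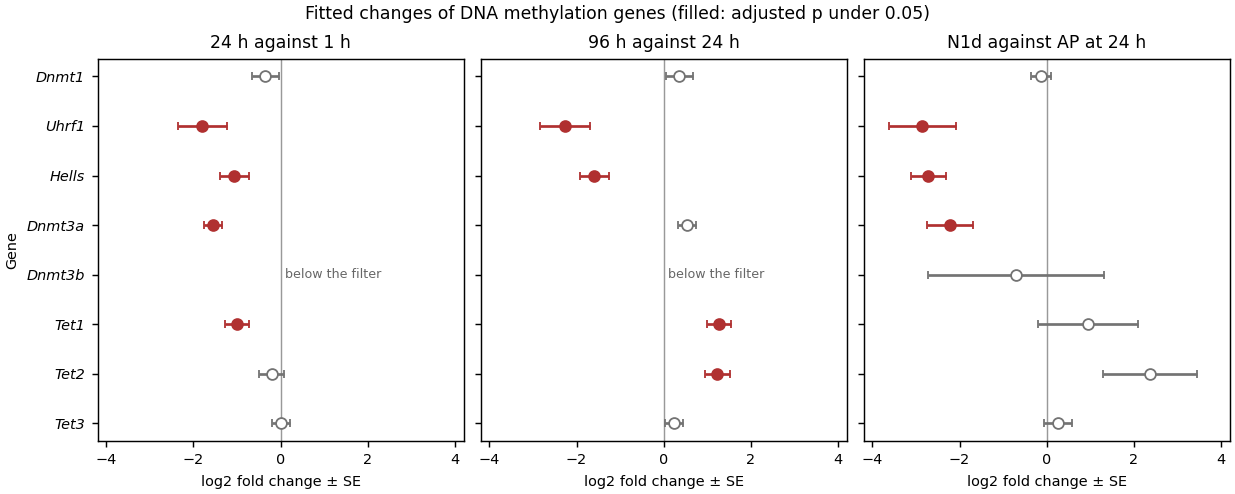
Fitted log2 fold changes with their SE (x axis) of the 8 genes (y axis) for 24 h against 1 h, 96 h against 24 h, and N1d against AP at 24 h, with filled points for adjusted p under 0.05 (edgeR). Uhrf1 and Hells lie left of 0 in all 3 comparisons, and Tet1 changes side between the first and the second.

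The second comparison asked which cells of a single time, 24 h, held the genes. Classes of 1 day came from 1 run, so the injection day was a block in the fit, and the authors' clusters had been called on the same cells. For N1d against AP, 3 of 8 members were lower (Hells, Uhrf1 and Dnmt3a) and 0 higher, beside 11% of 9969 genes called, 5.65% lower and 5.39% higher. Hells in AP cells at 24 h was at 205.96, 120.8, 215.5 and 88.1 CPM from E12 to E15, above every N1d value, and changed by -2.72 ± 0.40 in N1d (log2, SE; adjusted p = 0.00162, edgeR). Uhrf1 in AP cells at 24 h was at 68.7, 206.2, 117.3 and 42.6 CPM, also above every N1d value, and changed by -2.86 ± 0.77 (adjusted p = 0.0376, edgeR). That call was lost without E12, E13 or E15 (adjusted p 0.0644 to 0.192) and with no filter on low counts (0.0719), while the Hells call held in each alternative run. These AP sums held 14 cells at E12, 22 at E13, 32 at E14 and 44 at E15, and 1 cell gave 73.2% of the Uhrf1 reads of the E12 sum.

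For N1d against BP at 24 h, Hells was the 1 member of 8 called, with -2.38 ± 0.39 (log2, SE; adjusted p = 0.00762, edgeR), beside 3.44% of genes called, with 2.3% called lower. Without E12 or without E13 its adjusted p was 0.0602 and 0.0543. Uhrf1 differed by -3.01 ± 0.77 with an adjusted p of 0.0598, and it passed with DESeq2 (10.3% of genes called), with cells thinned to equal depth and without the day block. Dnmt1 was highest in BP cells on each day at 24 h, with 189.4, 215.1, 134.1 and 185.8 CPM, against 104.7, 116.5, 81.8 and 125.5 CPM in N1d cells and 97.3, 160.3, 115.1 and 102.002 CPM in AP cells. The BP values lay above the N1d values on every day and above the whole N1d range, but the difference of N1d from BP was -0.76 ± 0.22 with an adjusted p of 0.101 (edgeR) and 0.0322 (DESeq2). For BP against AP at 24 h 0 of 8 members were called by edgeR, beside 1% of genes, and 2 had an unadjusted p under 0.05 (Dnmt1 and Dnmt3a), while DESeq2 called 1. The AP.early cluster at 1 h and the BP.early cluster at 24 h held the most Dnmt1 among clusters of at least 20 cells, at 349 and 258.7 CPM, and BP.early cells at 24 h came mostly from E12 (64 of 98).

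Levels of S phase genes also differed between these classes. A list of 24 S phase genes summed to 1856 to 3959 CPM in AP cells and 1601 to 4147 CPM in BP cells at 24 h, against 549 to 1021 CPM in N1d and 394 to 674 CPM in N4d cells. Of these 24, 14 were lower in N1d than in AP at 24 h, 10 lower than in BP, 13 lower at 96 h than at 24 h and 1 lower at 24 h than at 1 h, beside 5.65%, 2.3%, 12.5% and 7.76% of all genes. A list of 20 genes of G2 and M phase gave 13, 7, 17 and 9 lower in the same order. Across the 683 AP cells at 1 h of at least 100000 reads, thinned to that depth, the S phase sum correlated with Uhrf1 (r = 0.46), Hells (r = 0.45) and Dnmt1 (r = 0.35). For the other 5 members r lay between -0.0022 and 0.14 in the same cells. In 578 N1d cells at 24 h r was 0.13 for Uhrf1, 0.19 for Hells and 0.02 for Dnmt1. Injection days were pooled for each r. In AP cells at 1 h the S phase sum, Uhrf1, Hells and Dnmt1 were all highest at E12. Each r thus mixes differences between days with differences between cells, and r within a day was not computed. Cells share runs and conditions, so these values are descriptions. The part of S phase in the results was not tested.

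The third comparison asked whether the genes changed with the injection day. In AP cells at 1 h, Dnmt1 fell by 0.81 log2 units per day (SE 0.10, adjusted p = 0.00401, edgeR) and Hells by 0.78 (SE 0.16, adjusted p = 0.0411), 2 of 8 members, beside 0.991% of genes called in either direction, with 0.226% of 10195 called lower and 0.765% called higher. Dnmt1 in AP cells at 1 h was at 342, 163.6, 103.2 and 64.4 CPM from E12 to E15. It was lower at E14 than at E12 within 1 run code (103.2 against 342) and lower at E15 than at E13 within the other (64.4 against 163.6). With the run code as a block the slope was -0.79 with an adjusted p of 0.0467. Without E12 at 1 h it was -0.70 with an adjusted p of 0.136, so the call rests on E12 while the order of E13, E14 and E15 was the same.

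The Hells slope kept its sign in each alternative and lost its call without E12 at 1 h (-0.69, adjusted p = 0.707), with the run block (-0.78, adjusted p = 0.156) and in 12 of 18 alternatives in all. Within run codes Hells was at 324 and 100.2 CPM (E12, E14) and at 163.95 and 65.3 CPM (E13, E15). Uhrf1 sloped by -0.72 ± 0.57 (adjusted p = 0.788, edgeR), and its values on E13, E14 and E15 lay between 79.4 and 116.5 CPM. The AP cells of E12 at 1 h were mostly of the AP.early cluster (95.03%), where the thinned shares with a read were 92.7% for Dnmt1, 96.1% for Uhrf1 and 94.4% for Hells. In the AP.late cluster at 1 h the thinned shares were 37.1%, 24.5% and 26.5%. The gap remained at equal depth. Thinned shares in AP cells at 1 h were also highest at E12 for other members. They were 84.2% for Dnmt3a (63.2% to 68.5% on the other days) and 12.4% for Dnmt3b (0.543% to 6.14%). For Tet1 they were 45.8% (28.9% to 38.9%) and for Tet3 59.9% (36.8% to 54.3%). Tet2 was at 24.3% at E12 and 24.5% at E15.

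The S phase list summed to 4796, 2330, 1599 and 1212 CPM in AP cells at 1 h from E12 to E15, and 3 of its 21 tested genes had a slope called lower. The G2 and M phase list summed to 4942, 3820, 3852 and 4161 CPM on the same days, with 0 of 20 slopes called. In neurons the Dnmt1 slopes were 0.04 ± 0.10 per day in N1d and 0.09 ± 0.10 per day in N4d. The difference between the 3 slopes of Dnmt1 had an adjusted p of 0.0399 (edgeR), beside 0.216% of genes called. It rose to 0.287 without E12 at 1 h and to 0.431 with the run block, and it missed the threshold in 13 of 18 alternatives. No member was called in the N1d or N4d slopes or in the slope shared by the classes, beside 0.383%, 0.049% and 1.01% of genes (edgeR). At an unadjusted p under 0.05 there were 2 members in N1d (Tet1 and Tet2), 0 in N4d and 2 in the shared slope (Dnmt1 and Tet1), and DESeq2 called 1, 0 and 2.

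**Figure D3:**
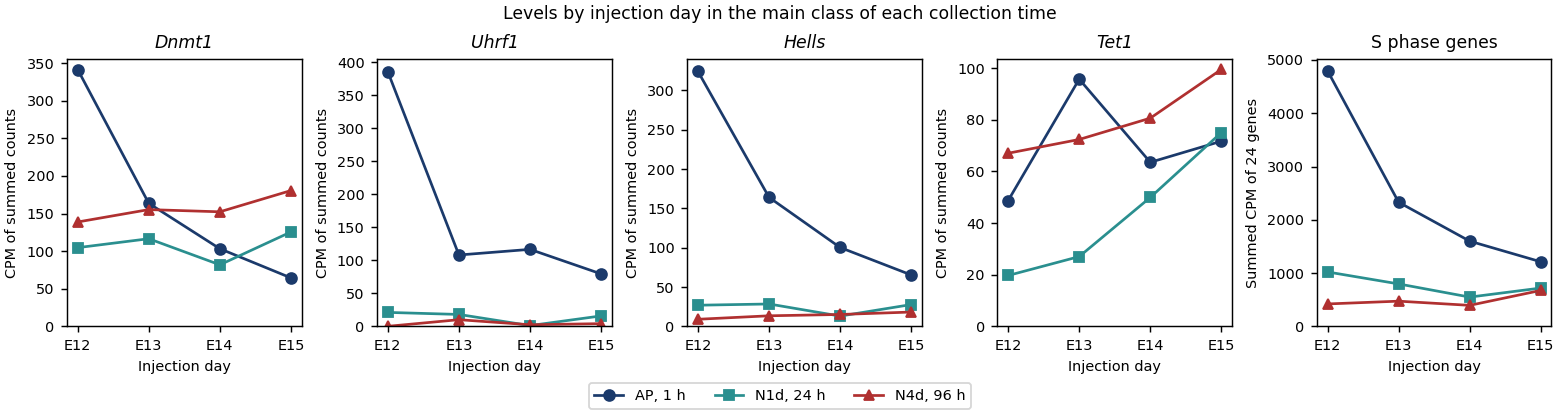
CPM of summed reads (y axis) of Dnmt1, Uhrf1, Hells and Tet1, and the summed CPM of 24 S phase genes, by injection day (x axis) in AP (1 h), N1d (24 h) and N4d (96 h) cells, with 1 point per condition. In AP cells Dnmt1, Hells and the S phase sum were lower on each later day, and in N1d cells Tet1 was higher on each later day.

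Dnmt3a had the smallest adjusted p of the 7 members tested at 24 h against 1 h. It was at 179.96, 164.96, 140.3 and 151.3 CPM in the lineage sums at 1 h from E12 to E15 and at 48.99, 52.4, 48.6 and 72.7 CPM at 24 h. Every 1 h value was above every 24 h value. The change was -1.55 ± 0.21 (log2, SE; adjusted p = 0.000304, edgeR) and was called in every alternative run. At 96 h it was at 85.2, 51.2, 88.2 and 86.4 CPM, a difference of 0.53 ± 0.21 from 24 h with an adjusted p of 0.0771, which passed with N1d and N4d cells alone (1.21, adjusted p = 0.0188) and with thinned cells (0.85, adjusted p = 0.0245).

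By class at 24 h, Dnmt3a was at 69.03, 262.9, 120.8 and 165.5 CPM in AP cells, at 57.8, 59.97, 18.4 and 33.4 CPM in BP cells and at 41.5, 16.1, 23.9 and 44.9 CPM in N1d cells. Every AP value was above every BP and N1d value, but 1 cell gave 52.2% of the Dnmt3a reads of the E12 AP sum, where 3 of 14 cells had a read, and 67.3% of those of the E13 AP sum. As the mean of single cells the E13 value was 128.3 CPM. N1d differed from AP by -2.22 ± 0.52 (log2, SE; adjusted p = 0.0198, edgeR), a call lost without E13, E14 or E15 (adjusted p 0.0698 to 0.0969). BP differed from AP by -1.88 ± 0.51 with an adjusted p of 0.124 (edgeR) and 0.00322 (DESeq2, which called 6.98% of genes). AP cells at 1 h held Dnmt3a at 183.9, 169.6, 152.7 and 159.1 CPM (mean 166.3 ± 13.7, SD, n = 4 days), with a slope per day of -0.10 ± 0.20 (adjusted p = 0.959). The 54 astrocytes of E15 at 96 h, a single sum with no test, held 180.5 CPM, beside 76.5 CPM in N4d cells of that day.

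Dnmt3b was sparse. It reached 18.8, 0.363, 14.9 and 10.1 CPM in AP cells at 1 h and stayed at or below 13.4 CPM in the N1d sums at 24 h and the N4d sums at 96 h. AP cells at 24 h were at 0, 15.3, 19.9 and 3.03 CPM from E12 to E15. IN cells at 96 h were at 15.3, 0.283, 0.513 and 18.0 CPM. In AP cells at 1 h, 17.1% of cells at E12 and 3.98% at E13 had a read, and 1 cell gave 23.7% to 80.3% of the gene's reads per day. In the 14 AP cells of E12 at 24 h no read was found, which allows a share of cells of up to 21.4%. Its fitted differences carried SEs of 0.32 to 2.05 and 0 were called.

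**Figure D4:**
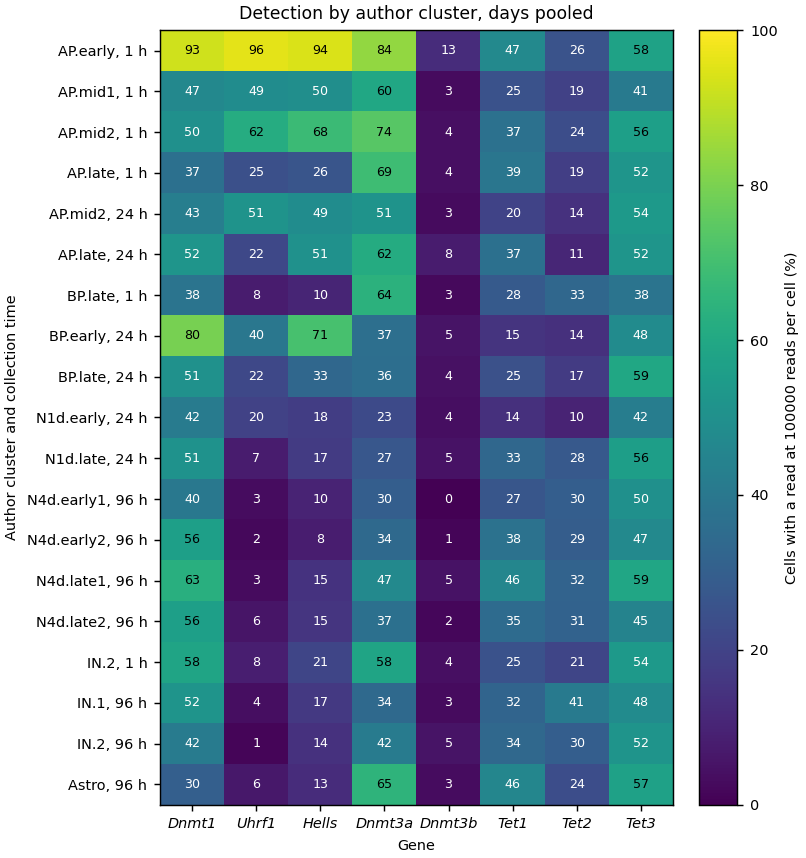
Share of cells with a read at 100000 reads per cell (colour and number, percent) for each of the 8 genes (x axis) in each author cluster and collection time of at least 20 cells (y axis), injection days pooled. Uhrf1 ran from 96% in AP.early at 1 h to 1% in IN.2 at 96 h, while Tet3 stayed between 38% and 59%.

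Among the Tet genes, Tet1 fell and then rose. It was at 48.3, 92.5, 58.8 and 67.5 CPM in the lineage sums at 1 h, at 18.7, 24.7, 40.4 and 65.2 CPM at 24 h and at 64.9, 75.004, 83.2 and 99.4 CPM at 96 h. On each day the 24 h value was the lowest of the 3, although the E15 value at 24 h lay within the 1 h range and above the E12 value at 96 h. The 24 h change was -1.01 ± 0.28 (log2, SE; adjusted p = 0.0227, edgeR) and the 96 h change 1.26 ± 0.28 (adjusted p = 0.00616). The fall was lost without E13 at 1 h or without E12 or E13 at 24 h (adjusted p 0.0596 to 0.0932), and both calls were lost with the 6 run codes as samples (adjusted p = 0.213 and 0.0900).

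In N1d cells and in the lineage sums at 24 h Tet1 was higher on each later injection day. N1d cells held 19.7, 27.0, 49.9 and 75.1 CPM from E12 to E15, and 15.3%, 22.1%, 47.1% and 50.4% of cells had a read. The slope was 0.67 ± 0.15 per day with an adjusted p of 0.0877 (edgeR) and 0.00511 (DESeq2, which called 3.79% of genes). Within run codes the steps were from 19.7 to 27.0 CPM (E12, E13) and from 49.9 to 75.1 CPM (E14, E15). With the run code as a block the slope was 0.49 with an adjusted p of 0.989 (edgeR). The other classes at 24 h did not keep that order. AP cells had no Tet1 read in 14 cells at E12 (up to 21.4% of cells allowed) and then 28.4, 17.8 and 73.8 CPM, and BP cells were at 20.6, 16.4, 2.74 and 26.5 CPM. AP cells at 1 h had a slope of 0.07 ± 0.16. The median reads per cell at 24 h were also higher at E14 and E15 (436953 and 429943) than at E12 and E13 (267952 and 342155). So were the median detected genes (4716 and 5029 against 3772 and 3874). At 100000 reads per cell the N1d shares were 12.2%, 15.7%, 31.8% and 39.4%.

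Tet2 was higher at 96 h. In the lineage sums it was at 27.7, 26.4, 30.3 and 30.1 CPM at 1 h, at 18.0, 14.3, 41.7 and 30.1 CPM at 24 h and at 52.6, 49.2, 52.96 and 78.8 CPM at 96 h. Every 96 h value was above every earlier one. The 24 h change was -0.20 ± 0.29 (adjusted p = 0.667) and the 96 h change 1.23 ± 0.29 (log2, SE; adjusted p = 0.00844, edgeR). The latter was 1.00 with an adjusted p of 0.0637 with N1d and N4d cells alone, and 1.21 with an adjusted p of 0.0690 with run codes as samples.

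The highest class mean of Tet2 was in interneurons. At 96 h IN cells were at 187.9, 156.1, 127.9 and 85.1 CPM from E12 to E15 and N4d cells at 54.99, 52.2, 52.8 and 89.9 CPM. IN was above N4d on 3 of 4 days and slightly below it at E15. The difference was 1.19 ± 0.34 (log2, SE) with a p of 0.00585 and an adjusted p of 0.133 (edgeR), 0.00834 with DESeq2 (8.71% of genes called), and 0.0300 by edgeR without E15. In 8 of 10 alternatives it missed the threshold, with an adjusted p of up to 0.512 (edgeR). For IN against N4d 0 of the 6 members tested were called by edgeR, beside 2.24% of 9362 genes, and 1 (Tet2) had an unadjusted p under 0.05. The IN sums of E13, E14 and E15 held 44, 30 and 35 cells, and 1 cell gave 26.8% to 48.6% of their Tet2 reads. The IN.1 cluster held 189.1 CPM and IN.2 101.9 CPM at 96 h, over 4 days pooled.

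Tet3 was called in no comparison. It was at 78.5, 65.2, 75.6 and 77.7 CPM at 1 h, at 66.4, 97.8, 85.4 and 53.9 CPM at 24 h and at 80.0, 68.7, 104.9 and 93.9 CPM at 96 h. The 3 times overlapped. The fitted changes were 0.01 ± 0.21 and 0.24 ± 0.21 (log2, SE; adjusted p = 0.979 and 0.444, edgeR), and 36.8% to 62.9% of cells had a Tet3 read at 100000 reads in the N4d sums at 96 h, the N1d sums at 24 h and the AP sums at both times. In astrocytes of E15 at 96 h Tet1 was at 164.9, Tet3 at 96.2 and Tet2 at 23.0 CPM, and in the N4d cells of that day they were at 99.5, 77.8 and 89.9 CPM, with no test.

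AP cells collected at 24 h were also set against AP cells at 1 h. None of the 8 members was called by edgeR or had an unadjusted p under 0.05, and 0 were called by DESeq2, beside 0.0107% of 9346 genes with edgeR (1 gene) and 2.15% with DESeq2, and the 24 h sums held only 14 to 44 cells. The differences of Uhrf1 (-0.47 ± 0.43), Hells (0.18 ± 0.33), Dnmt1 (-0.23 ± 0.35) and Dnmt3a (-0.13 ± 0.35) on the log2 scale were each close to their SE or below it. Tet1 (-1.88 ± 1.03) and Tet2 (-1.79 ± 1.00) had p values of 0.0969 and 0.100 before adjustment, with the E12 sum at 24 h holding 0 and 1 read.

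Genes that work with the members were taken from 4 lists of 64 genes, of which 57 were tested over time. At 24 h against 1 h, 4 were higher and 6 lower, and at 96 h against 24 h 4 were higher and 11 lower. That is 7.02% and 10.5%, then 7.02% and 19.3%, beside 11.4% and 7.76%, then 11.7% and 12.5%, of all genes called higher and lower. Of the 17 readers of methylated or unmethylated CpG tested, 4 were higher and 2 lower at 96 h (edgeR). Of the suppliers of methyl groups and nucleotides, Shmt2 (-1.76 ± 0.26 log2, SE; adjusted p = 0.000542, edgeR) and Tyms (-1.64 ± 0.36, adjusted p = 0.00562) were lower at 96 h. Of the genes listed for removal of oxidised cytosine, Polb, the polymerase of base excision repair, was higher at 24 h (1.33 ± 0.17, adjusted p = 0.000263, edgeR). Gadd45g, a marker of basal progenitors, was lower at 96 h (-2.22 ± 0.48, adjusted p = 0.00550, edgeR).

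Of 15 cofactors of the methyltransferases tested, 3 were lower and 0 higher in N1d than in AP cells at 24 h. Of all genes tested in that contrast, 5.65% were called lower and 5.39% higher (edgeR). Cdca7, which recruits Hells to chromatin, was lower in N1d than in AP at 24 h (-3.14 ± 0.37 log2, SE; adjusted p = 0.000433, edgeR). Pcna, the sliding clamp of the fork, to which Dnmt1 binds, was lower by the same contrast (-1.69 ± 0.29, adjusted p = 0.00394), and so was Lig1, the ligase of replication (-1.74 ± 0.31, adjusted p = 0.00513). The other 12 were not called. Lig1 also fell with the injection day in AP cells at 1 h, by 0.98 log2 units per day (SE 0.14, adjusted p = 0.00696, edgeR). It was the 1 cofactor called there, beside 0.226% of all genes called lower. In IN cells at 96 h Cdca7 was higher than in N4d cells (2.39 ± 0.41, adjusted p = 0.0133).

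Genes with the most similar pattern were found over 25 sums (class by day by time, at least 20 cells), as Pearson's r of log2(CPM + 1) among 8822 genes. These sums share runs and depth. Uhrf1 and Hells were each other's nearest gene (r = 0.93). Next to Uhrf1 came Mcm3 (0.93) and Mad2l1 (0.92), and next to Hells Chek1 and Hat1 (both 0.92). Dnmt1 had no such close neighbour, with Haus6 (0.71) and Nol9 (0.68) among the nearest. Dnmt3a came closest to Rest (0.83), Cyp20a1 (0.80) and Nedd4 (0.79). Tet2 came closest to Neb, Fam155a and Ttc3 (0.88, 0.88 and 0.87), and Tet1 to Lars2, Yam1 and Arl6ip5 (0.79, 0.79 and 0.78). Tet3 had Opa1 (0.71), Zmym3 and Zranb1 (both 0.69), and Dnmt3b had Rars (0.68), Dcbld2 and Kif4 (both 0.65). Between members, Tet2 ran against Uhrf1 (r = -0.72) and Hells (r = -0.71), and Dnmt1 showed r of 0.32 with Uhrf1 and 0.35 with Hells.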

How the data were processed

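Single-cell RNA sequencing reads of 2756 sorted cells were analysed from the deposited table, which holds raw read counts without scaling for every gene in each cell. The submitters' processing notes name GRCm38, TopHat2 2.0.13 and UMI-tools without giving roles; the counter, annotation and filters are not given in the sources used here. The members and gene lists were chosen with earlier results of these data known. Each condition was 1 sample, and each fit took its sums from the cells of the named classes. Raw counts were summed and fitted with the quasi-likelihood test of edgeR 4.0.16 (R 4.3.3, TMM scaling, genes with at least 10 CPM in at least 3 sums, Benjamini-Hochberg over all genes tested, threshold 0.05). Contrasts between times had injection day as a centred number, day trends had a line per class, and class contrasts had day as a block (3 to 8 residual degrees of freedom). Spread between sums was a common biological coefficient of variation of 44.1% to 73.5%. Scripts were tested on simulated data.

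Shares of cells with a read were also computed after thinning each cell to 100000 reads, which left out 122 shallower cells. A share of 0 allows up to 3 cells of the total, and such limits cover counting error only. Named genes were the 8 members, up to 3 genes per direction by smallest p among called genes of the related lists (of which examples are given), and the 3 most similar genes per member. Of the genes these rules select, 2 are not reported here. Alternatives were DESeq2 1.42.0, its size factors within edgeR, no filter, a filter on detection in 10% of cells, thinned cells, other choices of cells, run codes as samples or block, no day term, day as a block in the time contrasts (chosen after seeing the data), stage matching, and leaving out each sum or day. Levels were not compared between genes, since counts are not scaled to length. Tables and figures were made with Python 3.11.15, numpy 2.4.6, pandas 2.3.3, scipy 1.17.1 and matplotlib 3.10.9.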

Additional observations from a re-analysis of the deposited data

Results flagged for a closer look

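Over 48 groups of 4 injection days (8 genes by 6 class and time groups), the gap of the highest or lowest day to the nearest other, divided by the range, passed Dixon's value of 0.829 in 6, where chance flags about 1 in 20. Uhrf1 in AP cells at 1 h was at 385 CPM at E12 against 79.4 to 116.5 CPM on the other days. Hells in N1d cells at 24 h was at 13.0 CPM at E14 against 26.8 to 28.4 CPM. Tet2 in N4d cells at 96 h was at 89.9 CPM at E15 against 52.2 to 54.99 CPM, and Tet2 in BP cells at 24 h was at 74.8 CPM at E14, a sum of 8 cells, against 14.4 to 20.6 CPM. Dnmt3b in N1d cells at 24 h was at 13.4 CPM at E15 against 1.81 to 3.42 CPM, with 46.2% of its reads in 1 cell. Dnmt3b in N4d cells at 96 h was at 7.45 CPM at E12 against 0.569 to 1.59 CPM, with 85.9% of its reads in 1 cell. The injection-day slopes of Dnmt1 differed between AP (1 h), N1d (24 h) and N4d (96 h) cells with an adjusted p of 0.0399 (edgeR). That difference missed the threshold in 13 of 18 alternatives.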

How the results depend on the processing

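No alternative to the 15 called results of the members reversed a direction. The Dnmt1 difference between slopes, an F test, is 1 of these results and has no direction. Of the alternatives 77.1% kept the call and 60 lost it, 13 of them for that Dnmt1 test. Of 1162 alternatives to 77 uncalled results, 19 passed the threshold. CPM levels stayed within 1 SD in 48 of 48 groups after thinning and in 48 of 48 with the mean of single cells, while thinned shares moved by more in 28 of 48. The share of tested genes called moved as follows where the count changed by over 1.5 times, and the cause was not tested. For 24 h against 1 h (19.2%), main classes alone gave 31.9% and run codes as samples 10.4%, and for 96 h against 24 h (24.2%) run codes gave 12.5%. For the slopes in AP, N1d and N4d, the shared slope and the difference between slopes (0.991%, 0.383%, 0.049%, 1.01% and 0.216%), DESeq2 gave 3.36%, 3.79%, 1.63%, 5.73% and 2.81%. No filter, with more genes tested, gave 0.292%, 0, 0.0122%, 0.268% and 0.0547%, and the run block gave 0.324%, 0, 0.00981%, 0 and 0. The N4d slope gave 0.0794% with the detection filter and 0.0195% with thinned cells. With DESeq2, BP against AP gave 6.98% (1% with edgeR), N1d against BP 10.3% (3.44%), N1d against AP 21.6% (11%), IN against N4d 8.71% (2.24%) and AP at 24 h against 1 h 2.15% (0.0107%). Without a filter BP against AP gave 0.367%, and without the day block N1d against BP gave 2.22%. AP at 24 h against 1 h gave 0 without a filter, with the detection filter and with stages matched. Leaving out each sum or day gave 13.9% to 19.7% for 24 h against 1 h, 16.4% to 25.2% for 96 h against 24 h, 0.576% to 1.25%, 0 to 0.537% and 0.0299% to 0.0990% for the AP, N1d and N4d slopes, 0.188% to 1.43% for the shared slope and 0.139% to 0.318% for the difference. For the class contrasts it gave 0.0211% to 0.627% (BP against AP), 0.749% to 1.95% (N1d against BP), 4.73% to 7.96% (N1d against AP) and 1.11% to 1.90% (IN against N4d), and 0 to 0 for AP at 24 h against 1 h. By replicate number, no paired analysis was possible because the labels give none, but injection day pairs the sums and was the block in the class contrasts. As a block in the time contrasts, chosen after seeing the data, it gave 16.6% and 21.2% of genes called and 0 for AP at 24 h against 1 h, and ended the calls of Uhrf1 and Hells at 24 h against 1 h (adjusted p = 0.0561 for both, edgeR). Few reads of Dnmt3b and few AP and BP cells at 24 h limit the precision there.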
